A study of Mus musculus with 35 samples.

Results

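A set of 10 genes outside the core clock, chosen because their transcripts followed the 24 h day in regulatory T cells (Tregs) of visceral adipose tissue (VAT), are described here in every library of both tissues. The 10 genes are Camk2b, Acss1, Tollip, Herc3, Lpar6, Galm, Slc14a1, Adgre5, Zfp1 and Rac2, out of 55011 gene symbols in the count table. In VAT their peaks lay in 3 parts of the day. Slc14a1, Acss1, Tollip, Camk2b and Herc3 peaked in the middle or later part of the light phase, Adgre5 and Zfp1 around lights off or early in the dark, and Rac2, Lpar6 and Galm later in the dark phase. In spleen the courses of the same genes were shallower, which is partly built in, since the genes were chosen in VAT. There 1 of the 10, Rac2, passed the test of a 24 h rhythm, beside 1.99% of all genes tested. That call was lost in 13 of the 35 fits that left out 1 library, and with a term for transcript length. Averaged over the day, 3 genes were higher and 6 lower in VAT than in spleen, beside 28.4% and 33.8% of all genes tested.

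The cells were CD4+ CD25+ Tregs of male, wild-type (WT) C57BL/6 mice, retired breeders over 35 weeks old housed with 12 h light and 12 h dark. They were sorted in 2 rounds, 1000 cells a library, from VAT and from spleen at Zeitgeber time (ZT, in hours from lights on) 0, 4, 8, 12, 16 and 20. There were 3 libraries for each tissue and time, except VAT at ZT20 with 2, giving 17 VAT and 18 spleen libraries of 2069319 to 6260185 counts. Libraries carry the letters A to D of the labels, and nothing there says that replicates are separate animals; the p-values then cover only the spread among these libraries, which may be technical. CD25 is also borne by activated conventional T cells, and the labels name CD4 and CD25 alone for the sort. The sum of 6 Treg and CD4 T cell markers ranged over 4847 to 6466 CPM for VAT and 2502 to 3166 CPM for spleen, and Foxp3, the lineage factor of Tregs, averaged 711 CPM in VAT libraries and 521 CPM in spleen libraries. CPM are counts relative to library size, with libraries scaled by trimmed mean of M values (TMM).

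A circadian clock is a loop of transcription factors, present in most cells, in which BMAL1 and CLOCK drive the genes of their own repressors. Through these factors, and through daily signals such as feeding, body temperature and glucocorticoids, many genes that are not part of the loop also follow the day, and which ones do so differs between tissues. VAT Tregs are a population resident in fat, with receptors and a metabolism of their own. The 10 genes are not a pathway: they encode signalling proteins (Camk2b, Tollip, Rac2), surface receptors and a transporter (Adgre5, Lpar6, Slc14a1), metabolic enzymes (Acss1, Galm), a ubiquitin ligase (Herc3) and a zinc finger protein (Zfp1).

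The members were chosen by the 24 h rhythm of their counts in the VAT libraries, so that rhythm is given without a test. In a fit of a cosine and a sine of 24 h, 299 of 15910 genes (1.88%) passed an adjusted p of 0.05 in VAT, with all 10 members among them by the choice. By the p-value they ranked 11 (Adgre5) to 222 (Camk2b) among the 15910 genes. By amplitude, the fitted distance from peak to trough on the log2 scale, they ranked 39 (Camk2b) to 237 (Rac2) among the 299. All 10 passed the filter on low counts, with 2259 to 119444 counts in VAT and 604 to 156262 counts in spleen.

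The promoters of the members were read from a table of RefSeq promoters (build GRCm38.p6), in which 6 of the 10 were matched. Windows of Galm, Slc14a1, Adgre5 and Rac2 were not used here. The 250 bases before the start are shown for 3 genes that peaked late in the light phase and for 2 that peaked in the dark. The remaining window, that of Herc3, which also peaked in the light phase, held no GC box and is not shown. The starts are those of RefSeq. The windows of Camk2b, Acss1, Tollip and Herc3 lie inside the gene spans given further on, deepest for Tollip. Other annotated starts of these genes thus lie upstream of the windows. Capitals mark GC boxes (GGGCGG on either strand), the only letters of those searched that were found.
Camk2b, chr11:6065749-6065998, minus strand: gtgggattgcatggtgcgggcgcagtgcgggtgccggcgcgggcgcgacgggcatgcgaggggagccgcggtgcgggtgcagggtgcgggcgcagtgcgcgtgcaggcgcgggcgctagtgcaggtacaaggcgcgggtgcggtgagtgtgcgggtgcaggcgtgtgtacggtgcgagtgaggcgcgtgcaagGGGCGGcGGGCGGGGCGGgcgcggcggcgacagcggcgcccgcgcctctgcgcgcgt
Acss1, chr2:150668241-150668490, minus strand: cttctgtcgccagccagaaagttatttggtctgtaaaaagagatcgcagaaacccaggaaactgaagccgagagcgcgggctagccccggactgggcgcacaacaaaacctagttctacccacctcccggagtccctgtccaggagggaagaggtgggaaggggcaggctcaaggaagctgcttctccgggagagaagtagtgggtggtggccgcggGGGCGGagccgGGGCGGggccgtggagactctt
Tollip, chr7:141902462-141902711, minus strand: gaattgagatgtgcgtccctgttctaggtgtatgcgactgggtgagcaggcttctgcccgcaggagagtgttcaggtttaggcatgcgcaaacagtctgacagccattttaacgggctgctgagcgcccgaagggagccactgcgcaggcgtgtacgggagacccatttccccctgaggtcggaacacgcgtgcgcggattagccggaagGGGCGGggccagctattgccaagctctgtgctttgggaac
Lpar6, chr14:73237641-73237890, plus strand: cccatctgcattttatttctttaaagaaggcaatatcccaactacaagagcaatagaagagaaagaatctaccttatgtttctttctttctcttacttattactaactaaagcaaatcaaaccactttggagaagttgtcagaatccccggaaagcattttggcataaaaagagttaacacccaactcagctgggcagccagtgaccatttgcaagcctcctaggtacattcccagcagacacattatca
Zfp1, chr8:111643193-111643442, plus strand: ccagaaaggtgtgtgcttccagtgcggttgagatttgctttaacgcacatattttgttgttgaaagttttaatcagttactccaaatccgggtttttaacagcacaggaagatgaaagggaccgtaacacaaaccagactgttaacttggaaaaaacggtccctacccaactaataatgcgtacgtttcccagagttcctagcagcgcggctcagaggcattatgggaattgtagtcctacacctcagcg

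Camk2b, Acss1 and Tollip held GC boxes, 3, 2 and 1 of them, and Herc3, Lpar6 and Zfp1 held none; 32.7% of 32851 RefSeq promoter windows of the same length held at least 1. In Camk2b 2 of the boxes overlap. GC content followed the same division, at 78.4%, 61.6% and 60% in Camk2b, Acss1 and Tollip, against 44.8% in Herc3, 39.2% in Lpar6 and 44.8% in Zfp1, with a median of 52.4% over all windows. Letters of the clock's binding sites were searched on both strands: the E-box CACGTG, the related CACGTT, the D-box as TTATGTAA or TTACGTAA, and the ROR element as TAGGTCA. None of them occurred in the 6 windows, nor did the glucocorticoid element ACANNNTGT or the cyclic AMP element TGACGTCA. They are rare in windows of this length, from 0.113% of all promoters (TTACGTAA) to 6.02% (CACGTG), and a window without them says nothing of sites elsewhere.

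Slc14a1 encodes a urea transporter of the plasma membrane (chromosome 18, 78100091 to 78142119; annotated transcripts of up to 3665 nt). Positions span whole genes and, like lengths, come from GENCODE M21 on GRCm38. In VAT its libraries read 45.5, 23.7 and 53.8 CPM at ZT0, 63.7, 78.1 and 63.6 at ZT4, 49, 68.8 and 57.9 at ZT8, 56.5, 40.9 and 69.4 at ZT12, 46.7, 23.5 and 35.5 at ZT16, and 27.5 and 37.7 at ZT20. The 3 libraries at ZT4 lay above all of those at ZT0, ZT16 and ZT20. The fitted peak was at ZT6.9 ± 0.76 h with an amplitude of 1.08 ± 0.23 (estimate ± SE, as for all amplitudes and peaks below). Its spleen libraries read 63.3, 66.8 and 92.1 CPM at ZT0, 109, 132 and 133 at ZT4, 126, 110.1 and 109.5 at ZT8, 91.1, 74.3 and 116 at ZT12, 102, 81.6 and 76.1 at ZT16, and 121, 91.6 and 96.9 at ZT20. There too all libraries at ZT4 were above all of those at ZT0, and the fitted peak was at ZT6.62.

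Acss1, the acetyl-CoA synthetase of mitochondria, makes acetyl-CoA from acetate (chromosome 2, 150618105 to 150668500; up to 3618 nt). In VAT it read 51.5, 41.9 and 43.3 CPM at ZT0, 76.2, 78.1 and 48.1 at ZT4, 86.7, 73 and 80.7 at ZT8, 79.7, 95.5 and 62.8 at ZT12, 47, 63.6 and 39.8 at ZT16, and 37.8 and 10.8 at ZT20. The 3 libraries at ZT8 were above all those at ZT0, ZT16 and ZT20, and the lowest library of all was C at ZT20. The fitted amplitude was 1.42 ± 0.26 with a peak at ZT8.61 ± 0.65 h, and 1.12 without that library. In spleen it read 107, 102 and 86.8 CPM at ZT0, 62.8, 84.1 and 103 at ZT4, 101, 92.1 and 96 at ZT8, 92.1, 90.2 and 86.5 at ZT12, 93.2, 64.1 and 103 at ZT16, and 60.4, 51 and 45.8 at ZT20. The group means there lay between 83.2 and 98.5 CPM at ZT0 to ZT16 and at 52.4 CPM at ZT20. Without strand, reads from the 113 exonic bases it shares with the antisense transcript E130215H24Rik cannot be told apart.

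Tollip, an adaptor that binds Toll-like and IL-1 receptor complexes and takes part in endosomal sorting (chromosome 7, 141874813 to 141918507; up to 3788 nt), had its low point in VAT at ZT20. It stood at 99.9, 112 and 139 CPM at ZT0, 95, 160.2 and 104 at ZT4, 175, 187 and 198 at ZT8, 129, 173 and 243 at ZT12, 109, 154 and 73.1 at ZT16, and 51.1 and 50.2 at ZT20. Both libraries at ZT20 were below every other VAT library. The mean of 186 CPM at ZT8 was 3.68 times that of 50.6 CPM at ZT20, and the fit gave an amplitude of 1.31 ± 0.29 with a peak at ZT8.84 ± 0.79 h. The spleen libraries read 47.8, 78.3 and 72.3 CPM at ZT0, 47.6, 84.1 and 77.6 at ZT4, 85.3, 101 and 93.8 at ZT8, 73.1, 62.5 and 61.4 at ZT12, 87.1, 38.7 and 64.1 at ZT16, and 68.8, 44.2 and 27 at ZT20. There too the mean was highest at ZT8 and lowest at ZT20, and all libraries at ZT8 were above all of those at ZT20.

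Camk2b encodes the beta chain of calcium/calmodulin-dependent kinase II, best known from neurons (chromosome 11, 5969644 to 6066362; up to 4125 nt). Its VAT libraries read 22.5, 18.5 and 32.8 CPM at ZT0, 55.4, 19.3 and 34.6 at ZT4, 36.6, 47.8 and 53.8 at ZT8, 78.6, 76 and 68.7 at ZT12, 35, 21.9 and 6.01 at ZT16, and 18.7 and 20.2 at ZT20. All 3 libraries at ZT12 were above every other VAT library, and the level at ZT16, 4 h later, overlapped that at ZT20. The amplitude of 1.77 ± 0.41 was the largest of the 10, with a peak at ZT9.23 ± 0.84 h, before the time with the highest mean, ZT12. In spleen, with 604 counts over all libraries, it was the lowest of the 10, with 8.06, 8.12 and 11 CPM at ZT0, 12.7, 6.56 and 2.88 at ZT4, 8.48, 3.58 and 14.9 at ZT8, 16.7, 8.47 and 6.27 at ZT12, 8.6, 8.21 and 11.5 at ZT16, and 6.37, 11.7 and 4.32 at ZT20. Libraries of every time overlapped, and its peak there could be placed only within an SE of 5.5 h.

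Herc3, a HECT-type ubiquitin ligase (chromosome 6, 58831465 to 58920398; up to 4731 nt), read in VAT 18, 32.6 and 34 CPM at ZT0, 34.6, 41.5 and 26.3 at ZT4, 57, 59.7 and 38.6 at ZT8, 35.6, 74.4 and 39.6 at ZT12, 23, 40.6 and 28 at ZT16, and 19.4 and 28.6 at ZT20. The libraries at ZT8 were above those at ZT0 and ZT20, while those at ZT12 were spread widely. The fit gave 1.14 ± 0.23 with a peak at ZT9.36 ± 0.75 h. Spleen libraries stood at 53.6, 76.4 and 70.5 CPM at ZT0, 47.6, 76.2 and 60.7 at ZT4, 67.5, 62.4 and 66.1 at ZT8, 96.8, 69.4 and 61.1 at ZT12, 74.6, 60.1 and 54.3 at ZT16, and 47.7, 52.7 and 46.5 at ZT20. The lowest mean, 49 CPM, was again at ZT20.

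**Figure D1:**
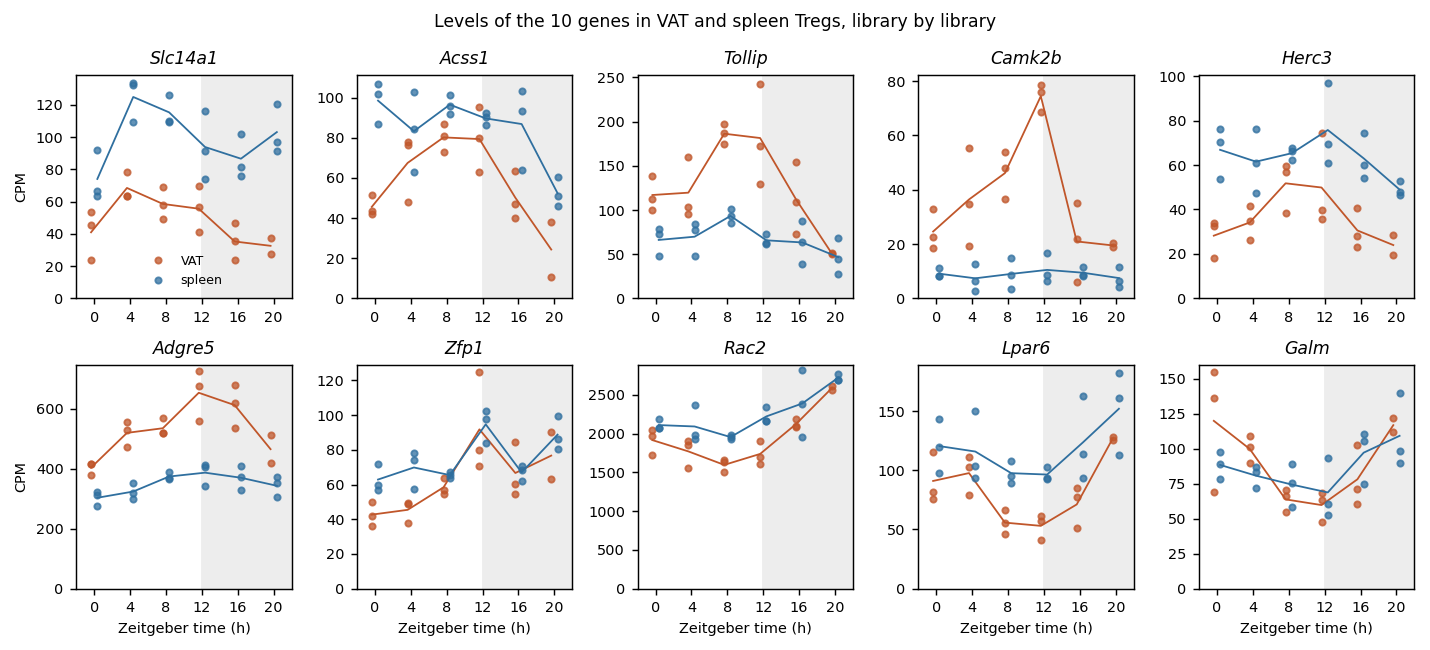
CPM (vertical axis, from 0) of the 10 genes against Zeitgeber time in hours (horizontal axis), 1 point per library, VAT left of spleen at each time, lines joining the means, dark phase shaded. Camk2b in VAT stands at 68.7 to 78.6 CPM at ZT12 and at 18.7 and 20.2 CPM at ZT20, while Rac2 in VAT is highest at ZT20, at 2555 and 2619 CPM.

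Around lights off, Adgre5 was at its highest. It encodes CD97, an adhesion receptor of leukocytes that binds CD55 (chromosome 8, 83723251 to 83741326; up to 3000 nt). In VAT it read 378, 417 and 415 CPM at ZT0, 528, 555 and 473 at ZT4, 568, 518 and 517 at ZT8, 675, 724 and 559 at ZT12, 678, 620.1 and 536 at ZT16, and 418 and 512 at ZT20. The libraries at ZT0 were below all of those at ZT4 to ZT16. The amplitude, 0.60 ± 0.10 with a peak at ZT12.14 ± 0.67 h, was small beside that of the genes above, and the replicates lay close together. Its exons share 895 bases with Ddx39 on the other strand, an overlap the counts cannot resolve. The spleen libraries held 277, 311 and 320.3 CPM at ZT0, 351, 319 and 300.1 at ZT4, 366, 367 and 387 at ZT8, 404, 412 and 342 at ZT12, 330.1, 371 and 407 at ZT16, and 351, 305 and 372 at ZT20. The libraries at ZT12 were above those at ZT0 there as well, with a fitted peak at ZT12.43.

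Zfp1, a zinc finger protein gene (chromosome 8, 111643401 to 111671011; up to 1930 nt, the shortest of the 10), stood in VAT at 50, 41.9 and 36 CPM at ZT0, 37.7, 48.9 and 49.6 at ZT4, 54.8, 56.9 and 63.5 at ZT8, 125, 80 and 70.8 at ZT12, 84.6, 54.8 and 60.6 at ZT16, and 90.2 and 63.2 at ZT20. All libraries at ZT12 were above all of those at ZT0, ZT4 and ZT8. The fit gave 0.98 ± 0.19 and a peak at ZT14.09 ± 0.8 h. In spleen it read 57.1, 71.6 and 59.9 CPM at ZT0, 73.9, 78.1 and 57.5 at ZT4, 67, 65.4 and 63.9 at ZT8, 102, 98 and 84 at ZT12, 68.5, 70.5 and 62 at ZT16, and 86.2, 99.4 and 80.7 at ZT20. The means there had 2 high points, 94.7 CPM at ZT12 and 88.8 CPM at ZT20, with 67 CPM between them, a course that a single cosine does not follow.

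Rac2 is a small GTPase of blood cells, which acts on the actin cytoskeleton and cell movement (chromosome 15, 78559167 to 78572783; up to 3038 nt). It was the most abundant of the 10, also per length, with 631 CPM per kb of its longest transcript in VAT and 740 in spleen. VAT libraries held 2051, 1971 and 1724 CPM at ZT0, 1908, 1551 and 1849.9 at ZT4, 1498, 1659 and 1629.7 at ZT8, 1901, 1612 and 1698 at ZT12, 2186, 2101 and 2082 at ZT16, and 2555 and 2619 at ZT20. Both libraries at ZT20 were above every other VAT library, and all 3 at ZT16 were above all of those at earlier times. The fit gave 0.58 ± 0.10 with a peak at ZT19.55 ± 0.63 h. In spleen it read 2076, 2067 and 2185 CPM at ZT0, 2364, 1981 and 1929 at ZT4, 1954, 1976 and 1933 at ZT8, 2159, 2348 and 2156 at ZT12, 1957, 2822 and 2386 at ZT16, and 2695, 2694 and 2773 at ZT20. The 3 libraries at ZT20 were above all of those at ZT0, ZT4, ZT8 and ZT12, and B at ZT16 was the highest library of all.

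Lpar6 encodes a receptor for lysophosphatidic acid and is a gene of a single annotated transcript of 5400 nt, the longest of the 10, inside the Rb1 locus (chromosome 14, 73237895 to 73243294). In VAT it read 116, 81.9 and 75.6 CPM at ZT0, 103, 79.1 and 111 at ZT4, 55.1, 66.3 and 45.9 at ZT8, 61.2, 40.9 and 56.9 at ZT12, 77.2, 51.5 and 84.8 at ZT16, and 128 and 126 at ZT20. All libraries at ZT8 and ZT12 were below all of those at ZT0, ZT4 and ZT20. The fitted amplitude was 1.13 ± 0.20 and the peak at ZT22.74 ± 0.67 h. Its spleen libraries held 120.0, 143 and 98.1 CPM at ZT0, 150.1, 93.8 and 104 at ZT4, 95.4, 108 and 89.6 at ZT8, 103, 92.5 and 93.7 at ZT12, 93.9, 163 and 114 at ZT16, and 161, 182 and 113 at ZT20. The mean was highest at ZT20 and lowest at ZT12, as in VAT, but the libraries of those times stood closer together. Its exons share 408 bases with Rb1 on the other strand.

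Galm, the mutarotase that starts galactose breakdown (chromosome 17, 80127471 to 80185101; up to 2314 nt), read in VAT 155, 136 and 68.9 CPM at ZT0, 109, 101 and 89.7 at ZT4, 70.4, 54.4 and 66.4 at ZT8, 68, 47.9 and 63.2 at ZT12, 60.4, 103 and 71.1 at ZT16, and 122 and 112 at ZT20. Library C at ZT0 lay apart from the other two of its time, within the range of ZT8. The fit gave 1.11 ± 0.19 with a peak at ZT22.98 ± 0.66 h. Spleen libraries read 78.4, 89 and 97.6 CPM at ZT0, 83.2, 71.8 and 87 at ZT4, 75.1, 58.5 and 89.3 at ZT8, 52.4, 93.5 and 60.2 at ZT12, 74.9, 111 and 106 at ZT16, and 89.8, 139.6 and 98 at ZT20. The mean was again lowest at ZT12, and its libraries at that time and at ZT20 overlapped.

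The spleen libraries took no part in the choice of the genes, so the 24 h rhythm was tested there. The model held both tissues with a shared estimate of each gene's spread, so the VAT libraries also enter the spleen p-values. Rac2 passed, with an amplitude of 0.39 ± 0.10, a peak at ZT18.48 ± 0.93 h and an adjusted p of 0.0453 (edgeR, quasi-likelihood F test, Benjamini-Hochberg over 15910 genes). Its spleen libraries stood at 2695, 2694 and 2773 CPM at ZT20, against 1954, 1976 and 1933 CPM at ZT8, without overlap between these times. Of all genes 316 (1.99%) were called in spleen, and 1 of the 10 members. The Rac2 spleen amplitude missed the threshold with library totals in place of TMM (adjusted p = 0.0671, edgeR), without the ZT20 libraries (0.367) and in 13 of the 35 fits that left out 1 library. The other 9 did not pass, with adjusted p-values of 0.127 (Adgre5), 0.162 (Galm), 0.168 (Lpar6), 0.314 (Tollip) and 0.514 to 0.936 for Slc14a1, Acss1, Zfp1, Herc3 and Camk2b by edgeR. At an unadjusted p under 0.05 there were 5 of the 10 members (Rac2, Adgre5, Galm, Lpar6 and Tollip), beside 2478 of all genes (15.6%). With the length slope described further on in the fit, the spleen amplitude of Tollip was 0.21 ± 0.20, against 0.71 without it. That of Rac2 was 0.19 ± 0.07, against 0.39, and that of Lpar6 0.34 ± 0.16, against 0.59. Galm had 0.40 ± 0.19, against 0.59, and Adgre5 0.35 ± 0.09, against 0.34.

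The fitted spleen amplitudes ran from 0.30 ± 0.44 (Camk2b) to 0.71 ± 0.28 (Tollip), with a median of 0.39 over the 10 and of 0.48 over all genes tested. Each was below the VAT amplitude of the same gene, which is partly built in, since large VAT amplitudes were chosen, and the difference between the tissues was not tested for that reason. The peak times lay close together. For 9 of the 10 genes the spleen peak was within 3 h of the VAT peak, with Camk2b, at a difference of -3.55 h, outside. Of all genes tested 33.7% had their fitted peaks within 3 h, and of the 299 called in VAT 64.2%. With the length slope described further on in the fit, the shares were 8 of 10 members, 29.3% of all genes and 47.2% of the 299. Tollip peaked at ZT8.84 in VAT and ZT7.5 in spleen, Herc3 at ZT9.36 in VAT and ZT9.32 in spleen, Lpar6 at ZT22.74 in VAT and ZT20.87 in spleen, and Galm at ZT22.98 in VAT and ZT20.31 in spleen. The SE of these differences was 1.13 to 5.57 h, and for no member did the difference exceed 2 SE. These shares are descriptions, since libraries of both tissues moved with transcript length in a like way over the day.

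**Figure D2:**
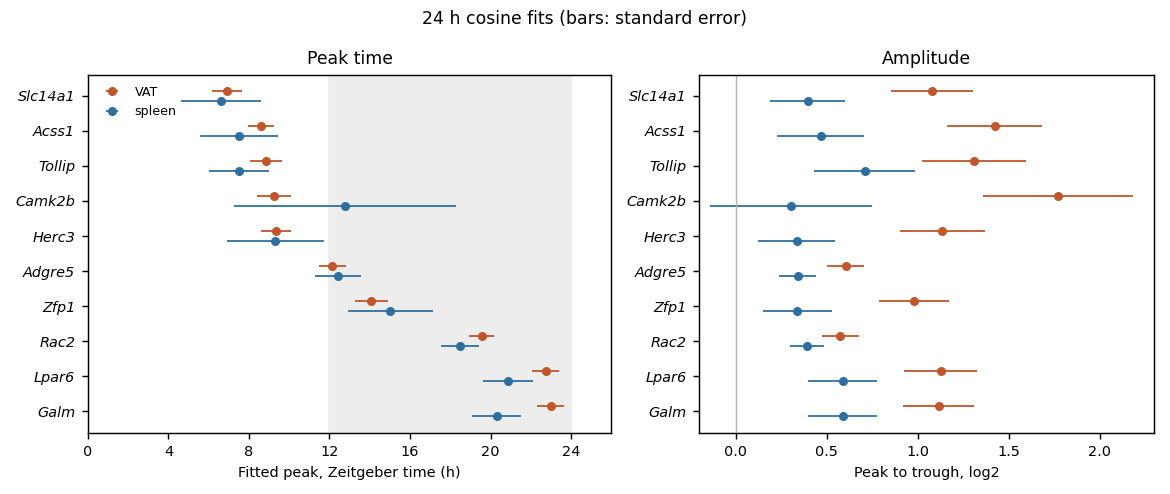
Fitted peak in hours of Zeitgeber time (left, dark phase shaded) and amplitude from peak to trough in log2 units (right) for each gene, VAT above spleen, bars showing the standard error. The order of peaks from Slc14a1, at ZT6.9 in VAT and ZT6.62 in spleen, to Galm, at ZT22.98 in VAT and ZT20.31 in spleen, is the same in both tissues apart from Camk2b and from Lpar6 and Galm, which change places, and VAT amplitudes, by which the genes were chosen, are the larger ones. The spleen fits do not resolve neighbours in this order: Acss1 at ZT7.49 and Tollip at ZT7.5 have SEs of 1.94 and 1.49 h.

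Between the tissues, averaged over the 6 times, 9 of the 10 genes differed, beside 62.2% of all genes tested. Camk2b, Tollip and Adgre5 were higher in VAT at 6 of 6 times (28.4% of all genes were called higher). Camk2b averaged 38 ± 21.9 CPM over VAT libraries and 8.8 ± 3.73 CPM over spleen libraries (SD, n = 17 VAT and 18 spleen, as below), a log2 fold change of 1.90 ± 0.21 (adjusted p = 2.48e-09, edgeR). Tollip averaged 132 ± 53.1 CPM in VAT and 67.5 ± 20.2 CPM in spleen (0.83 ± 0.13), although at ZT20 the VAT libraries, at 51.1 and 50.2 CPM, lay within the spleen range of 27 to 68.8 CPM. Adgre5 averaged 535 ± 99.1 CPM over VAT libraries and 350 ± 39.6 CPM over spleen libraries (0.59 ± 0.05, adjusted p = 3.62e-13, edgeR).

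Slc14a1, Herc3, Acss1, Lpar6, Zfp1 and Rac2 were lower in VAT at 6 of 6 times (33.8% of all genes were called lower). Slc14a1 averaged 49.5 ± 16.6 CPM in VAT and 99.7 ± 21.8 CPM in spleen, with a log2 fold change of -1.07 ± 0.10 (adjusted p = 8.46e-12, edgeR). Herc3 averaged 37.2 ± 14.9 CPM in VAT and 63.6 ± 12.8 CPM in spleen (-0.85 ± 0.11), Acss1 59.8 ± 22.2 CPM in VAT and 84.5 ± 19.1 CPM in spleen (-0.63 ± 0.11), and Lpar6 80 ± 27.8 CPM in VAT and 118 ± 29.1 CPM in spleen (-0.56 ± 0.09). The differences of Zfp1 (-0.27 ± 0.08, adjusted p = 0.0041, edgeR) and Rac2 (-0.21 ± 0.04) were small, with a median over all genes tested of -0.10. Galm, with 88 ± 30.9 CPM over VAT libraries and 86.4 ± 20.7 CPM over spleen libraries, did not pass (0.02 ± 0.10, adjusted p = 0.897, edgeR). Its VAT mean was above spleen at 3 of 6 times: at ZT0, with 120 CPM in VAT and 88.4 CPM in spleen, and at ZT4 and ZT20. In none of the 10 genes did the ranges of all VAT and all spleen libraries separate, which they did for 10.4% of genes tested. With library totals in place of TMM the 9 directions were the same, the median of all genes moved by -0.34, and Galm was called lower in VAT (-0.33). In bulk samples, fewer cells of a kind and less RNA per cell cannot be told apart.

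**Figure D3:**
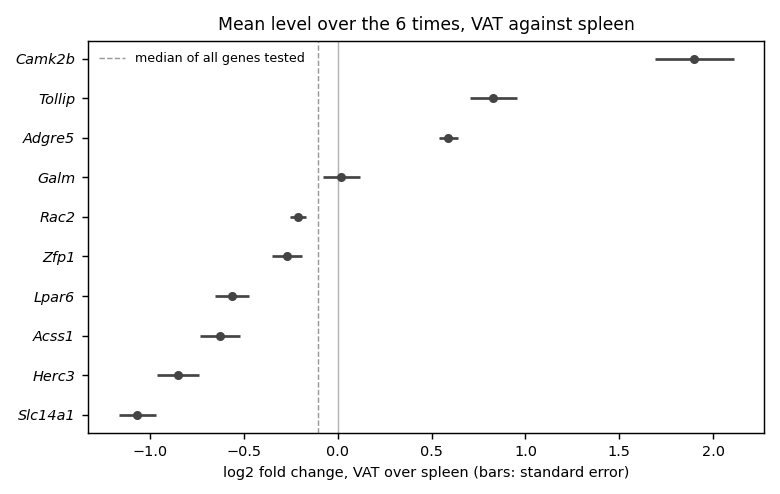
Log2 fold change of VAT over spleen averaged over the 6 times (horizontal axis) for each gene, bars showing the standard error, with the median of all genes tested, -0.10, as a dashed line. Camk2b (1.90), Tollip (0.83) and Adgre5 (0.59) lie to the right, Galm (0.02) at 0, and 6 genes to the left, down to Slc14a1 (-1.07).

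Levels also moved with transcript length from library to library. For each library the slope of log2 CPM, less the gene's mean in the tissue, on log2 length of the longest transcript was taken over 15627 genes. Slopes ran from -0.11 to 0.067 in VAT and from -0.083 to 0.069 in spleen, where a negative slope means that long transcripts were low in that library. The lowest VAT slopes were those of the 2 libraries at ZT20, -0.1 and -0.11, and the 3 spleen libraries at ZT20, with a mean of -0.055, were low as well. VAT means were 0.016 at ZT0, 0.00097 at ZT4, 0.024 at ZT8, 0.038 at ZT12, -0.0079 at ZT16 and -0.11 at ZT20. In both tissues the mean slope was lowest at ZT20. There, with 2 VAT libraries, the VAT means of Slc14a1, Acss1, Tollip, Camk2b and Herc3 were lowest and those of Rac2 and Lpar6 highest.

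The members that peaked in the light were all longer than the median gene, and most of the others were not. The longest transcripts of the 5 genes with a peak before ZT10 were 3618 to 4731 nt, and those of the other 5 were 1930, 2314, 3000, 3038 and, for Lpar6, 5400 nt, against a median of 3065 nt over the genes tested. With the slope as a term beside the cosine and sine, Tollip changed by 0.76 ± 0.13 log2 units for each 0.1 of slope, Acss1 by 0.47 ± 0.14, Herc3 by 0.40 ± 0.13 and Camk2b by 0.20 ± 0.28. Lpar6 moved by -0.45 ± 0.11 for the same step, although its transcript is the longest, Zfp1 by -0.30 ± 0.12, Galm by -0.27 ± 0.12 and Rac2 by -0.25 ± 0.04. Adgre5, at -0.06 ± 0.06, and Slc14a1, at -0.03 ± 0.14, moved by about 1 SE or less.

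With the slope in the fit the VAT amplitude of Tollip was 0.76 ± 0.22, against 1.31 without it, and that of Rac2 0.37 ± 0.08, against 0.58. Acss1 then had 1.09 ± 0.26, Herc3 0.81 ± 0.23 and Lpar6 0.83 ± 0.17, each more than 1 SE below the first estimate. Camk2b (1.62 ± 0.47), Galm (0.93 ± 0.19), Slc14a1 (1.10 ± 0.25), Adgre5 (0.64 ± 0.10) and Zfp1 (1.01 ± 0.18) moved by less than 1 SE. Over all genes, 28 (0.176%) passed the VAT threshold with the slope and 17 without the ZT20 libraries, counts from which nothing is read about the members, chosen on the same libraries. In spleen, where 98 genes (0.616%) passed with the slope, none of the members did, Rac2 included (0.19 ± 0.07, adjusted p = 0.468, edgeR).

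**Figure D4:**
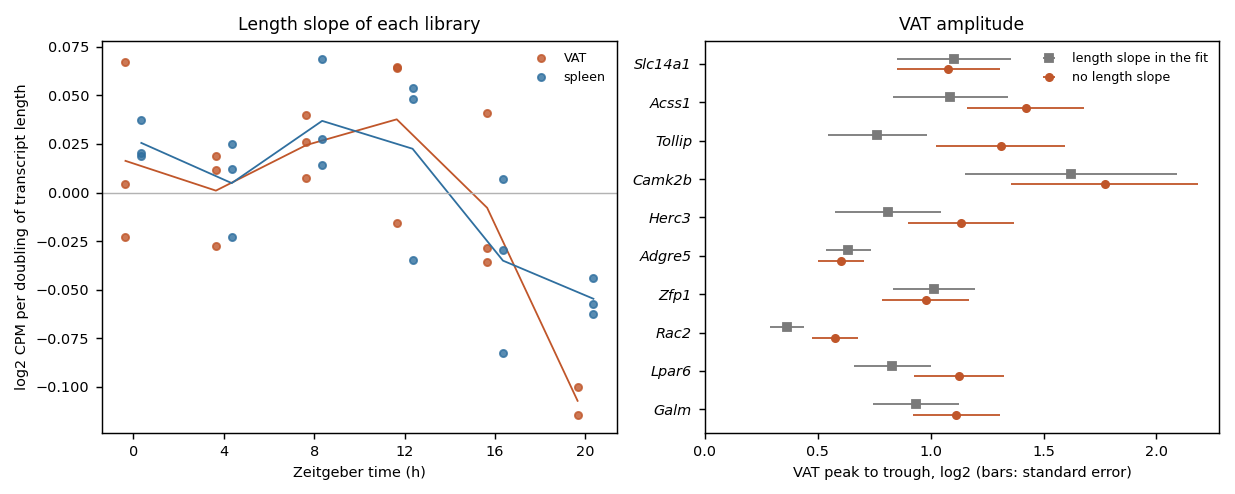
Left, slope of log2 CPM per doubling of transcript length for each library against Zeitgeber time in hours, VAT left of spleen, lines joining means, with the VAT libraries at ZT20 lowest at -0.1 and -0.11. Right, VAT amplitude (peak to trough, log2) with the slope in the fit above that without it, bars showing the standard error; Tollip is at 0.76 and 1.31, Slc14a1 at 1.10 and 1.08.

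Markers of other cells were summed in the same libraries. B cell markers, 6 genes of which Ighm gave most, summed to 93.6 to 305 CPM in VAT libraries and 1197 to 3084 CPM in spleen libraries. Their VAT means were 298 CPM at ZT20 and 129 to 182 CPM at the other times. They thus moved with the time at which Rac2 and Lpar6 were highest and Slc14a1, Acss1, Tollip, Camk2b and Herc3 lowest. The VAT mean at ZT20 was also the highest of the day for CD8 T cell markers (27.3 CPM, against 10.1 to 18 CPM at the other times), dendritic cell markers (43.3, against 17.7 to 31.9 CPM), plasma cell markers (447, against 371 to 413 CPM) and adipocyte markers (19.2, against 9.8 to 18.7 CPM). It was the lowest for endothelial markers (24.6, against 33 to 41.2 CPM), macrophage or monocyte markers (9.05, against 9.81 to 14.2 CPM), erythroid markers (1.92, against 1.93 to 5.8 CPM) and stromal or mesothelial markers (180.1, against 186 to 212 CPM). In VAT the CD8 T cell sum was nearly all Cd8b1, with Cd8a averaging 0.233 CPM, and the dendritic cell sum was mostly Xcr1. Xcr1 averaged 20.1 CPM in VAT and 0.477 CPM in spleen, while Zbtb46, also a dendritic cell marker, averaged 5.9 and 15.4 CPM. Over all libraries, macrophage or monocyte markers summed to 6.94 to 18.5 CPM in VAT and 21 to 84.5 CPM in spleen, CD8 T cell markers to 1.76 to 36.8 CPM in VAT and 6.36 to 21.2 CPM in spleen, and adipocyte markers, mostly Lipe, to 4.72 to 24.7 CPM in VAT and 17.9 to 33.3 CPM in spleen. The adipocyte gene Adipoq was near 0, averaging 0.096 CPM over VAT libraries and 0.486 CPM over spleen libraries, though no marker was without a count in VAT. Dendritic cell markers summed to 13.8 to 54.9 CPM in VAT and 11.1 to 34.2 CPM in spleen, erythroid markers to 1.11 to 8.33 CPM in VAT and 3.61 to 101 CPM in spleen, and NK cell or ILC markers, mostly Il5, to 12.5 to 49.6 CPM in VAT and 1.43 to 4.68 CPM in spleen. Endothelial markers, nearly all Pecam1, summed to 22.9 to 52.7 CPM in VAT and 158 to 341 CPM in spleen, and stromal or mesothelial markers, mostly Gsn and Lrrn4, to 161 to 241 CPM in VAT and 17.1 to 52.6 CPM in spleen. Neutrophil markers, nearly all Mmp9, summed to 152 to 854 CPM in VAT and 4.91 to 20.2 CPM in spleen, and plasma cell markers, mostly Xbp1 and Prdm1, to 332 to 458 CPM in VAT and 104 to 215 CPM in spleen. The other neutrophil markers averaged near 0 in VAT, at 0.033 (S100a8), 0.11 (S100a9), 0.12 (Ly6g) and 0.31 CPM (Csf3r). Of the other plasma cell markers, Jchain averaged 0.67 CPM in VAT and 10.7 CPM in spleen, and Sdc1 0.49 CPM in VAT and 0.28 CPM in spleen. The part of these cells in the values of the 10 genes was not tested.

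Relatives of the members behaved in their own ways. Of 12 measured calcium/calmodulin kinase genes, 9 were higher and 1 lower in VAT (median log2 fold change 0.99). The lower one was Camk2d, the delta chain of the same kinase (-0.53 ± 0.07), which was rhythmic in spleen (amplitude 1.12 ± 0.18, peak at ZT7.53, adjusted p = 0.00194, edgeR) but not called in VAT (0.32 ± 0.19). Camk2g, the gamma chain, averaged 220 CPM over VAT libraries and 68.2 CPM over spleen libraries and was not called over time in either tissue.

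Of 23 genes of Rac2-related small GTPases and their regulators, 12 were higher and 6 lower in VAT (median 0.17). Rac1, the ubiquitous relative of Rac2, was rhythmic in spleen, with a peak at ZT7.29 and an amplitude of 2.14 ± 0.43 (adjusted p = 0.013, edgeR), when Rac2 was near its low point. Arhgdib, the inhibitor that holds such GTPases in the cytosol of blood cells, was called in both tissues, in VAT with 0.56 ± 0.13 and a peak at ZT21, and in spleen with 0.51 ± 0.12 and a peak at ZT19, within 2 h of Rac2 in each. No other gene of the list was called over time.

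Among 11 genes of acetate and acetyl-CoA use, 7 were higher and 1 lower in VAT (median 0.53), where Acss1 itself was lower. Acss2, the acetate enzyme of cytosol and nucleus, averaged 161 ± 36.9 CPM in VAT and 75.9 ± 17.1 CPM in spleen, with a log2 fold change of 1.07 ± 0.10, opposite to Acss1. Its VAT course had a fitted peak at ZT8.81 but did not pass (0.44 ± 0.19, adjusted p = 0.348, edgeR). Slc16a1, a carrier of lactate and other monocarboxylates, was called over time in spleen (1.30 ± 0.30, peak ZT6.49). All other members of this list missed the threshold in both tissues over time.

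For Toll and IL-1 receptor signalling, 5 of 16 genes were higher and 2 lower in VAT (median 0.15), among them Irak2 (1.02 ± 0.07), Irak3 (1.14 ± 0.13) and the IL-33 receptor gene Il1rl1 (mean 1473 CPM over VAT libraries and 12 CPM over spleen libraries). None of the 16 passed over time in VAT or spleen (edgeR). Of 16 HECT ubiquitin ligases, 5 were higher and 9 lower (median -0.20), with Herc4 (-0.54 ± 0.11) and Herc6 (-0.31 ± 0.09) lower like Herc3, and Herc1 (0.37 ± 0.08) and Herc2 (0.20 ± 0.08) higher. Ube3a alone of these was called over time, in spleen (0.71 ± 0.14, peak ZT8.11).

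Of 8 genes of galactose handling beside Galm, 5 were higher in VAT and 0 lower (median 0.34), among them Ugp2, which makes UDP-glucose (0.64 ± 0.08), and Pgm1, a phosphoglucomutase (0.48 ± 0.09). In lysophosphatidic acid signalling 2 of 10 genes were higher and 2 lower (median -0.23). Gna13, a G protein subunit downstream of such receptors, was higher (0.77 ± 0.06), and Plpp1, a phosphatase that breaks the lipid down, was lower (-4.04 ± 0.51). Plpp1 averaged 0.656 CPM over VAT libraries, near 0, and 8.47 CPM over spleen libraries. Of the other receptors Lpar5 was the most abundant, averaging 24.1 CPM over VAT libraries and 20.5 CPM over spleen libraries. Among 9 adhesion receptors and CD97 ligands, 1 was higher and 6 lower (median -0.53), the ligands Cd55 (-0.47 ± 0.09) and Thy1 (-0.53 ± 0.09) being lower where Adgre5 was higher. Of 3 measured genes of urea and water transport, 1 was higher and 2 lower, all averaging under 8 CPM in each tissue. The higher one, Arg1, was uneven, at 7.52 ± 11.1 CPM (mean ± SD) over VAT libraries. Of 10 zinc finger genes 2 were higher and 8 lower, with Zfp292 called over time in spleen (0.84 ± 0.19, peak ZT6.88). Over all 15910 genes the median log2 fold change was -0.10.

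The genes whose levels over the 17 VAT libraries were most like each member, by Pearson's r of log2 CPM among all genes tested, are given as a description, since libraries share depth and the length slope. Tollip was closest to Il10ra, the IL-10 receptor gene (r = 0.97 in VAT and 0.56 over the 18 spleen libraries), Aplp2 and Mfsd14b, and Rac2 to Ppp1ca, a catalytic subunit of protein phosphatase 1 (0.97 in VAT and 0.89 in spleen), Stub1 and Polr2c. Acss1 was closest to Aldh6a1, like it a mitochondrial enzyme (0.94 in VAT and 0.78 in spleen), then Cyb5d1 and Top3a, and Lpar6 to Rnaseh1 (0.95 in VAT and 0.20 in spleen), Sdhc and Yipf5. Adgre5 stood next to Tsc22d3, the glucocorticoid-induced leucine zipper gene (0.88 in VAT and 0.72 in spleen), then Lysmd4 and 1500009L16Rik. Herc3 was nearest to Kdm4c (0.87 in VAT and 0.46 in spleen), Kansl1 and Ip6k1, and Zfp1 to Apobec3 (0.85 in VAT and 0.60 in spleen), Tnnt2 and Gm18828. Camk2b was nearest to Plek (0.82 in VAT and 0.0037 in spleen), Man2b2 and Gm43560, Slc14a1 to Prpf6 (0.82 in VAT and 0.34 in spleen), Gm29113 and Zfp949, and Galm to Sdf2 (0.81 in VAT and 0.41 in spleen), Cdk2ap2 and Cxcr6. Over all of these neighbours r in spleen ran from -0.40 (Zfp1 with Gm18828) to 0.89 (Rac2 with Ppp1ca), and it was below 0 for at least 1 neighbour of Camk2b, Zfp1, Slc14a1, Galm and Adgre5.

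Of the core clock, 4 of 19 genes were called in VAT (1.88% of all genes) and 2 in spleen (1.99% of all genes). Tef, a clock output gene, peaked at ZT10.28 in VAT with an amplitude of 1.56 ± 0.21 and Nr1d2, the gene of a clock repressor, at ZT9.43 with 1.85 ± 0.44, beside peaks of ZT8.61 to ZT9.36 for Acss1, Tollip, Camk2b and Herc3. Arntl, the gene of BMAL1, peaked at ZT0.24 with 0.76 ± 0.17, beside ZT22.74 for Lpar6 and ZT22.98 for Galm. The other VAT call, Per2, a clock repressor gene, averaged only 2.72 CPM over VAT libraries. Its fitted peak was at ZT13.21 with 3.10 ± 0.53, beside ZT12.14 for Adgre5 and ZT14.09 for Zfp1. In spleen the calls were Tef (1.18 ± 0.20, peak ZT6.54) and Npas2, which averaged 0.411 CPM there.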

How the data were processed

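Tregs from VAT and spleen were sequenced at 6 times of day (35 libraries). RNA was primed with oligo-dT, amplified by PCR, made into libraries with Nextera XT and read as pairs of 25 nt, per the labels' protocols. The authors deposited whole-number counts of reads for each gene symbol. The submitters' processing notes name STAR 2.7.3a, featureCounts and mm10. For the annotation, strand and reads with several matches, the sources used here give no setting. No molecular identifiers are named, so copies made by PCR may be counted.

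The members and lists were chosen with earlier results of these data known. The rule for named genes took all 10 members, listed genes past the spleen or tissue test and the closest relative of each member, and the 3 genes most like each in VAT. In R 4.3.3, edgeR 4.0.16 was run on the counts: filterByExpr over the 12 groups (15910 genes), TMM factors, robust dispersions and quasi-likelihood F tests, adjusted by Benjamini-Hochberg over all genes with a threshold of 0.05. All adjusted p-values are from edgeR unless another tool is named. Rhythm was tested with a cosine and sine of 24 h per tissue in a model of both tissues, and tissue as the mean of 6 VAT groups minus that of 6 spleen groups. Log2 CPM used a prior count of 2. Lengths and positions are from GENCODE M21, which held 52936 of 55011 symbols. The scripts were tested on simulated data. Some listed genes are not reported here. Of 34 pairs of replicates none agreed within sampling noise (chi-square per gene 4.12 to 20.6). Alternatives were library totals, DESeq2 1.42.0, other filters, tissues fitted alone, the replicate letter as a block, the length slope, no ZT20 libraries, and each library left out.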

Additional observations from a re-analysis of the deposited data

How the results depend on the processing

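The 9 tissue differences among the members kept direction and call under library totals, DESeq2, both filters, both length slopes, both blocks, without ZT20 and in all 35 fits without 1 library. The count of members called was 9, and 9 to 10 over these alternatives. For Galm, not called, the Galm log2 VAT over spleen turned negative with library totals (-0.33, adjusted p = 0.0031, edgeR), the 10 CPM filter (-0.016) and the length slope (-0.000811), and ran from -0.0203 to 0.0655 without 1 library. Of the members, 1 was called in spleen, 0 with library totals, the replicate block of letters, either length slope or no ZT20 libraries, 2 without a filter (Rac2 and Tollip), and 0 to 1 without 1 library. The Rac2 spleen amplitude missed the threshold without VAT ZT0 A or spleen ZT4 C and D, ZT8 B, C and D, ZT12 A and D, ZT16 B and C, or ZT20 A, B and C (adjusted p 0.0506 to 0.121 by edgeR).

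The genes rhythmic in VAT numbered 299, and 196 with library totals, 663 by DESeq2, 1572 without a filter, 42 with tissues alone, 124 with the replicate block, 28 with the length slope, 27 with slopes from merged exons (chosen after seeing the data) and 17 without ZT20. Without 1 library they numbered 54 to 1008. Counts more than 1.5 times away came without VAT ZT0 A (173) or C (1008), ZT4 C (196), ZT8 B (81), C (151) or D (186), ZT12 B (177) or D (178), ZT16 B (549), and ZT20 A (54) or C (79). The genes rhythmic in spleen numbered 316, and 853 by DESeq2, 1446 without a filter, 584 with tissues alone, 171 with the replicate block, 98 with the length slope and 106 with merged exons. Without 1 library they numbered 98 to 569, with such shifts without spleen ZT4 B (491) or C (141), ZT8 B (158), C (135) or D (136), ZT16 A (569), B (98) or C (176), and ZT20 B (204) or C (152). The cause of these shifts was not tested.

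The genes different between VAT and spleen numbered 9896, and 9685 to 9864 without 1 library. Libraries of 1 time and letter did not deviate together across tissues (17 pairs, r of -0.11 to 0.057), and the labels do not say what a letter stands for, so letters were not used as pairs in the results above. Camk2b in spleen rests on 604 counts, which limits its course there.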
